A study of Rattus norvegicus with 10 samples.

Results

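Several long noncoding RNAs (lncRNAs) that were lower in the ischemic hemisphere of the rat brain are described here, namely TCONS_00101013, TCONS_00079019, TCONS_00069225, TCONS_00090385 and TCONS_00063685. They are 5 of 1924 lncRNAs in the authors' own assembly, in a table of 32166 transcripts in all. They were chosen by their lower level in the right hemisphere than in the left, so the differences between the sides of these 5 are given as a description, without a test. Tests are given only for transcripts other than these 5, namely those of the same loci, which the choice did not use, and neighbours in the closing section that were picked after their values were seen.

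Male Sprague Dawley rats underwent a transient middle cerebral artery occlusion (MCAO), and brain tissue was taken after 24 h. Each of 5 rats, named P45, P52, P61, P71 and P72, gave 1 library of the left and 1 of the right side, so there were 10 libraries and 5 per group. All 5 rats had the operation, no sham-operated rat was analysed here, and the control of each right library was the left side of the same animal. The labels give the side alone. The right side was taken as the ischemic one, since the study draws the suture there and the signs in its tables go with that side, whereas its neurological scale, with circling to the right, fits a left-sided lesion better. If the left side were the ischemic one, the right minus left differences below would stay the same. Their reading as lower or higher in the ischemic hemisphere would reverse.

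An lncRNA is a long transcript, usually spliced, that encodes no recognisable protein. Many lncRNA loci give several alternative transcripts that share exons and exon junctions, and assembly software such as Cufflinks divides the reads of the shared exons among them, so the estimate for a single transcript depends on the others at its locus. Brain expresses a large set of lncRNAs, often at low levels and in particular cell types. In bulk tissue, fewer cells of a type and less RNA per cell cannot be told apart. Markers of neurons, glia, vessels and blood were not read, since no table used here pairs the transcript identifiers with gene symbols.

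Levels are FPKM, the fragments of a transcript normalised for its exonic length and for the mapped fragments of the library. FPKM carry no read counts, but low values allow the relative depth of the libraries to be estimated. The left libraries had 64.2% to 100% and the right ones 60.4% to 81.1% of the depth of the deepest, with the shallower library on the right in 4 of 5 rats. The part of this difference in the results below was not tested. Differences between sides are right minus left on the log2(FPKM + 0.1) scale, which understates those of low transcripts. A transcript was fitted when its mean FPKM over the 10 libraries was at least 0.1.

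The 5 transcripts lay on 5 different chromosomes of the rn5 build, and every one was lower on the right in all 5 rats. The name "lost" held for only 2 of them. The mean right level of TCONS_00101013 was 8.98% of the left, and that of TCONS_00079019 was 4.94%, with most right libraries below 0.001 FPKM. The other 3 remained well measurable on the right, where TCONS_00090385 kept 44.9%, TCONS_00069225 46.7% and TCONS_00063685 55.9% of the left level. In the order of the mean difference, TCONS_00101013 (-2.33) and TCONS_00079019 (-2.20) were neighbours closer to each other than the spread among rats, whose SD was 0.65 and 0.59. TCONS_00090385 (-1.12) and TCONS_00069225 (-1.07) were likewise within their SD of 0.29 and 0.21, and TCONS_00063685 (-0.77) came last with an SD of 0.14.

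**Figure D1:**
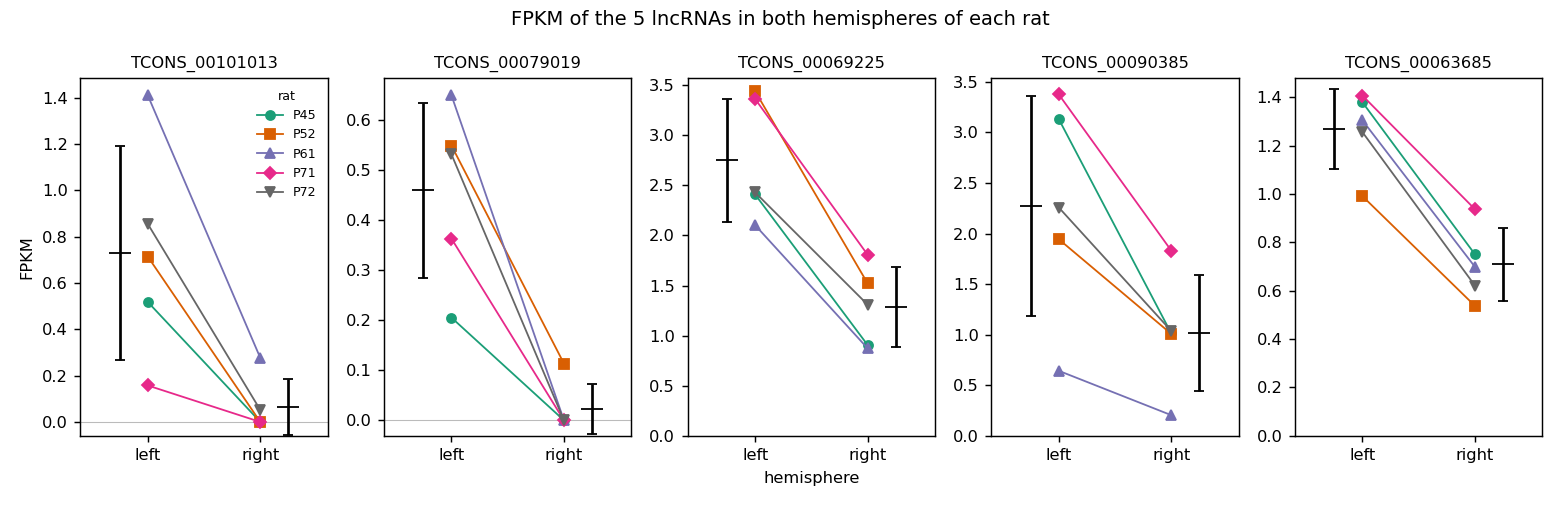
FPKM of each lncRNA (vertical axis, linear, a separate scale per panel) in the left and right hemisphere, with 1 line per rat and, beside each side, the mean with its SD (n = 5). All lines go down from left to right, and the points of TCONS_00101013 and TCONS_00079019 lie at or near 0 on the right in most rats.

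In the paired limma fit of all 20936 transcripts that passed the filter, 459 (2.19%) were called lower on the right and 1155 (5.52%) higher at an adjusted p under 0.05. Every right library lay below every left library for 3 of the 5 lncRNAs, TCONS_00079019, TCONS_00069225 and TCONS_00063685, against 757 (3.62%) of all transcripts tested. Nothing is read from the 3, because the lncRNAs were selected on this difference. The count of 459 called lower was 12 without rat P45, 63 without P52, 36 without P61 and 142 without P71, and the 1155 called higher were 250 without P45, 297 without P52, 344 without P61 and 704 without P71.

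TCONS_00101013 is a spliced transcript of 1796 nt in 9 exons on the plus strand, from 103219670 to 103440460 of chromosome 7, a span of 220791 nt. Its left levels were 0.518 FPKM in P45, 0.714 in P52, 1.41 in P61, 0.157 in P71 and 0.855 in P72. Its right levels were 3.65e-05, 1.00e-05, 0.276, 5.05e-18 and 0.0517 FPKM in the same order. The right side was thus practically without estimated signal in 3 rats, while P61 was highest on both sides. The groups overlapped, since the right level of P61 was above the left level of P71. The mean was 0.731 ± 0.461 FPKM on the left and 0.066 ± 0.12 on the right (SD, n = 5). The differences per rat were between -3.02 in P52 and -1.36 in P71, the rat whose left level was the lowest.

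The locus of TCONS_00101013 holds 9 other assembled transcripts on the same strand, and most of these had higher values on the right. All 9 were tested, and 0 passed in the limma fit after adjustment, with a lowest adjusted p of 0.063, although 5 had an unadjusted p under 0.05. In the same fit, 205 of the 1696 assembled lncRNAs and 5567 of all 20936 transcripts had an unadjusted p under 0.05. The difference was above 0 for 7 and below 0 for 2. TCONS_00099832 contains every exonic base of TCONS_00101013. It averaged 0.287 ± 0.158 FPKM on the left and 0.775 ± 0.306 on the right, was higher in 5 of 5 rats, and differed by 1.24 (limma, adjusted p = 0.063). TCONS_00098530, whose last exon runs on into the long intron, had 0.824 ± 0.393 and 1.66 ± 0.185 FPKM and was also higher on the right in 5 of 5 rats (1.02, limma, adjusted p = 0.079). The groups of both did not overlap. Every right library lay above every left one in 21 of the 1696 assembled lncRNAs and 1320 of the 19240 Ensembl transcripts tested. TCONS_00101015 was higher in 5 of 5 rats as well, with 0.290 ± 0.463 and 0.769 ± 0.397 FPKM (1.71, limma, adjusted p = 0.074). The numerically widest difference was that of TCONS_00096994, 0.211 ± 0.266 and 1.17 ± 0.610 FPKM, higher in 4 of 5 rats (2.29, limma, adjusted p = 0.104). The 2 with a negative difference were TCONS_00095277 (-0.66, limma, adjusted p = 0.543) and TCONS_00097582 (-0.43, limma, adjusted p = 0.802).

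**Figure D2:**
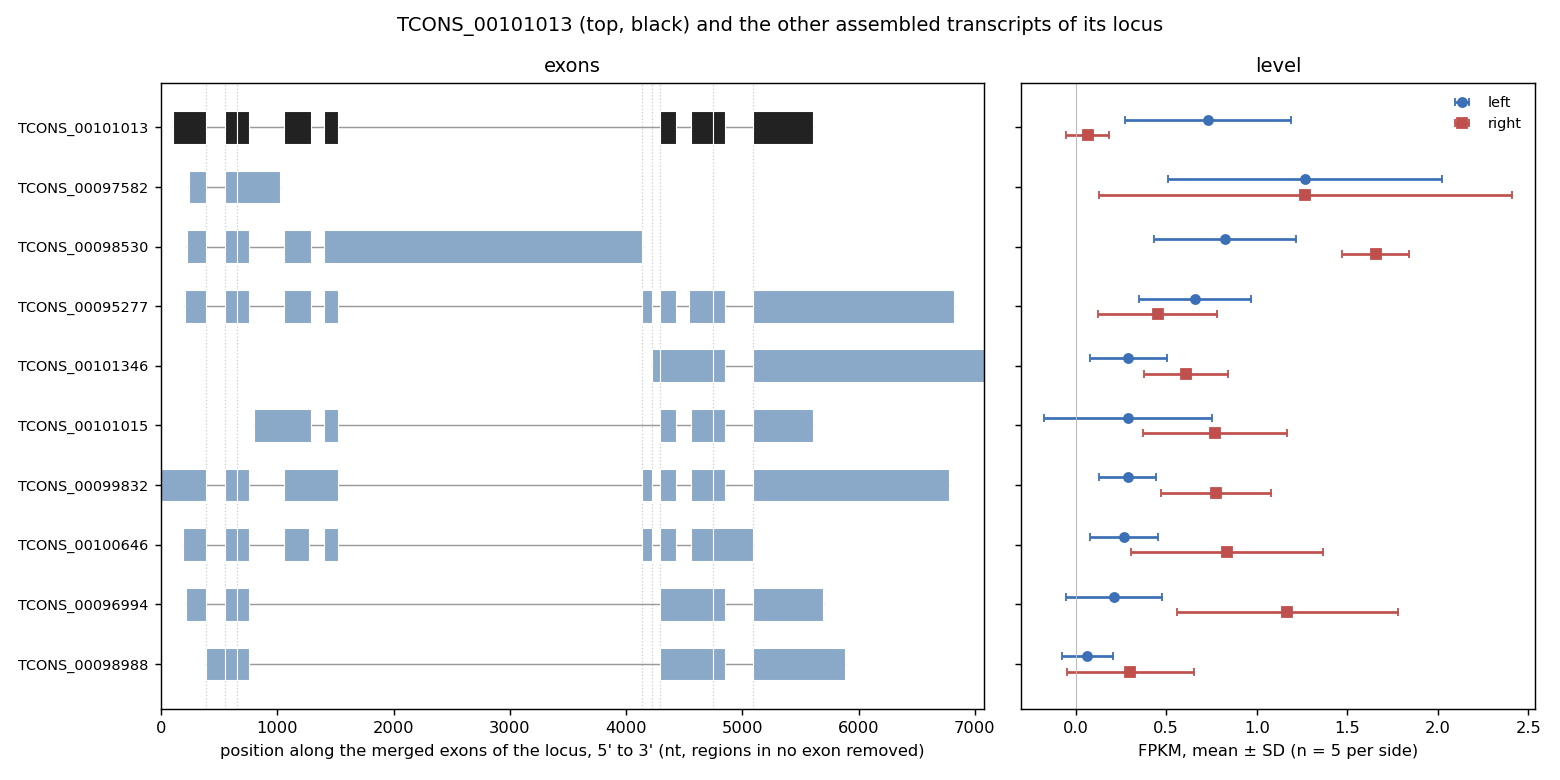
Exons of TCONS_00101013 (black) and of the 9 other transcripts of its locus (blue), drawn on the merged exons in nt from the 5' end with stretches in no exon removed, beside the FPKM of each transcript as mean ± SD on the left and right side (n = 5 each). TCONS_00101013 is higher on the left, whereas 7 of the others have a higher fitted value on the right.

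Summed over these 9 transcripts, the level was 4.16 ± 1.40 FPKM on the left and 7.84 ± 2.21 on the right. The sum still depends on how reads were divided among the 9, since they differ in length. It also depends on the division between them and TCONS_00101013. By rat the left sums were 3.13 FPKM in P45, 2.90 in P52, 5.11 in P61, 6.13 in P71 and 3.52 in P72, and the right sums 7.63, 7.12, 6.59, 6.17 and 11.7 FPKM. Each right sum exceeded each left sum. The mean difference was 0.92 (SE 0.27) and did not pass the test (limma, unadjusted p = 0.011, adjusted p = 0.0854), in a fit where 1615 of 20917 features (7.72%) were called in either direction. Over 15 settings of this limma fit the adjusted p ranged from 0.0351 to 0.253. The lowest came without the rat as a block, which ignores the pairing, and no other setting was under 0.05. Locus totals, shares and junction sums, here and below, cover only the assembled lncRNAs that the authors kept. Ensembl transcripts and discarded assembled ones were not included. Including TCONS_00101013, the locus total was 4.89 ± 1.42 FPKM on the left and 7.90 ± 2.19 on the right, higher in 4 of 5 rats. The share of that total held by TCONS_00101013 was 15.5% ± 7.78 on the left and 0.893% ± 1.76 on the right, lower in 5 of 5 rats. Each share, here and below, contains the level of an lncRNA chosen for its lower right side, so a lower right share is no separate result. TCONS_00101013 and the summed remainder of its locus differed between sides in opposite directions in 4 rats. In P71 the remainder was nearly the same on both sides, at 6.13 and 6.17 FPKM.

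None of the 8 exon junctions of TCONS_00101013 belongs to it alone. FPKM summed over all transcripts that hold a junction regroup the estimates of these transcripts. They are not counts of reads at that junction and do not locate a difference along the locus. The sums over transcripts with the seventh junction were 2.80 FPKM on the left and 4.98 on the right, and those with the eighth were 2.53 and 4.14, both higher in 5 of 5 rats. The sixth, at 1.57 and 2.44 FPKM, was also higher in 5 of 5. By contrast, the fifth junction, spanning an intron of 137277 nt from 103295232 to 103432508, is held only by TCONS_00101013 and TCONS_00101015, and was the one with the lower mean on the right, 1.02 ± 0.368 against 0.834 ± 0.309 FPKM. It was lower in 2 rats and higher in 3. TCONS_00101015 lacks the first 3 junctions. The combination of the 5' exons with the fifth junction sets TCONS_00101013 apart among the transcripts of the locus. Its level is therefore the estimate of TCONS_00101013 itself, which adds nothing to the values above.

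TCONS_00079019 is a compact transcript of 1733 nt in 6 exons on the minus strand, from 197492452 to 197497175 of chromosome 4, a span of 4724 nt. On the left it had 0.205 FPKM in P45, 0.548 in P52, 0.648 in P61, 0.363 in P71 and 0.531 in P72. On the right it had 1.46e-07, 0.113, 1.08e-14, 8.54e-23 and 3.10e-17 FPKM in the same order. Only P52 had a measurable right level, and the highest right value was below the lowest left one. The mean was 0.459 ± 0.175 FPKM on the left and 0.023 ± 0.051 on the right (SD, n = 5). The smallest difference among rats was -1.60 in P52 and the widest -2.90 in P61.

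The locus holds 12 other assembled transcripts, of which 11 were tested, 5 with a difference above 0 and 6 below. In the limma fit 0 passed after adjustment and 2 had an unadjusted p under 0.05, both with lower values on the right. Over all 1696 assembled lncRNAs tested, 205 had an unadjusted p under 0.05 in either direction. The lowest adjusted p, 0.061, was that of TCONS_00078206, which contains all exonic bases of TCONS_00079019 and shares 4 of its 5 junctions. The difference in structure is the first intron, of 519 nt from 197496504 to 197497022. TCONS_00078206 keeps it as exon, and among the assembled lncRNAs TCONS_00079019 alone removes it. TCONS_00078206 had 1.87 FPKM in P45, 1.40 in P52, 1.11 in P61, 1.89 in P71 and 0.851 in P72 on the left. On the right it had 0.520 FPKM in P52, 0.846 in P61 and 0.012 in P72, and was below 0.001 in P45 and P71. It was lower on the right in 5 of 5 rats and its groups did not overlap, with means of 1.42 ± 0.458 and 0.276 ± 0.389 FPKM and a difference of -2.67 (limma, adjusted p = 0.061). Every right library lay below every left one in 17 of the 1696 assembled lncRNAs tested. TCONS_00076795, in which the second intron of TCONS_00079019 is also kept as exon, had 1.31 ± 0.835 and 0.616 ± 0.428 FPKM, lower in 5 of 5 rats (-0.99, limma, adjusted p = 0.072). TCONS_00078630 and TCONS_00080755, which were low on both sides, had differences of 0.89 (limma, adjusted p = 0.363) and 0.60 (limma, adjusted p = 0.611).

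**Figure D3:**
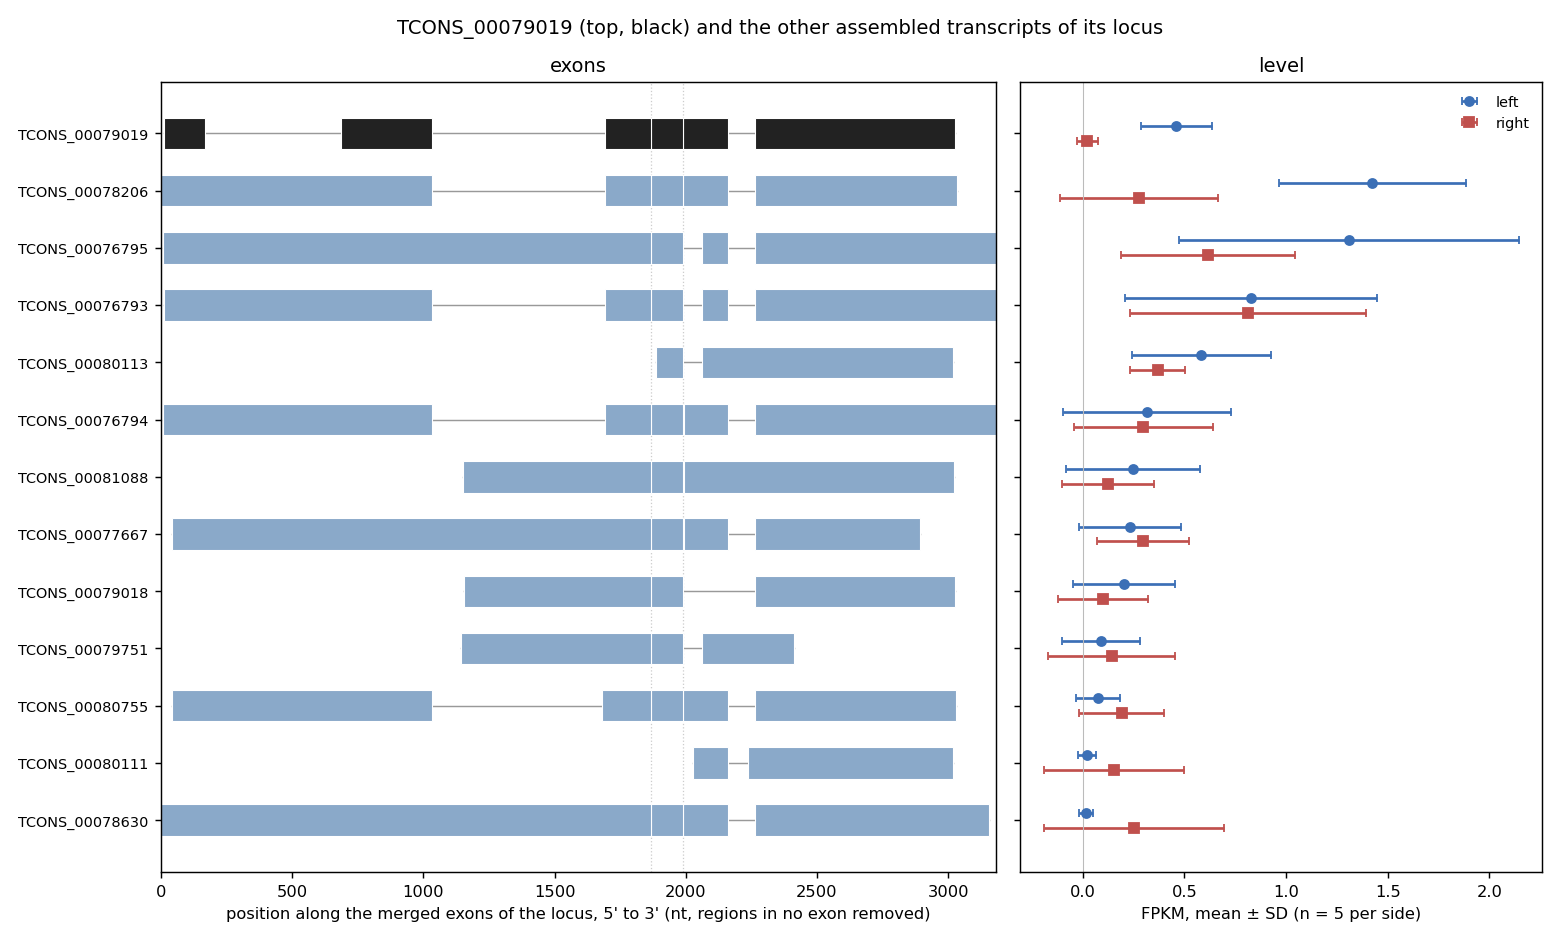
Exons of TCONS_00079019 (black) and of the 12 other transcripts of its locus (blue) on the merged exons in nt from the 5' end with stretches in no exon removed, beside the FPKM of each as mean ± SD on the left and right side (n = 5 each). TCONS_00079019, TCONS_00078206 and TCONS_00076795 have lower means on the right, and the SD of most other transcripts overlap between sides.

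The 12 others summed to 5.34 ± 1.08 FPKM on the left and 3.62 ± 0.847 on the right, lower in 4 of 5 rats. The left sums were 6.97 FPKM in P45, 4.52 in P52, 4.81 in P61, 4.48 in P71 and 5.91 in P72, and the right ones 3.06, 4.97, 2.92, 3.94 and 3.23 FPKM. P52, the rat with a measurable right level of TCONS_00079019, was the one whose sum was higher on the right. The difference of -0.55 (SE 0.22) did not pass the test (limma, unadjusted p = 0.039, adjusted p = 0.164). The share of TCONS_00079019 in the locus total was 8.26% ± 3.52 on the left and 0.446% ± 0.997 on the right, lower in 5 of 5 rats. By junction, the second was held by 4 transcripts whose sum was 3.03 FPKM on the left and 1.41 on the right, and the fourth by 4 whose sum was 1.97 and 0.741 FPKM. Both sums were lower in 5 of 5 rats, but both include TCONS_00079019, which was chosen for its lower right level. Without TCONS_00079019 the means were 2.57 and 1.39 FPKM for the second junction and 1.51 and 0.718 FPKM for the fourth. The second sum then stayed lower in every rat, but the fourth was higher on the right in P52. Here the member and the summed remainder of its locus had differences of the same sign in 4 of 5 rats, unlike at the locus of TCONS_00101013.

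TCONS_00069225 had the highest mean level of the 5 lncRNAs, 2.02 FPKM over the 10 libraries. It is a transcript of 2783 nt in 3 exons on the plus strand of chromosome 3, from 92119045 to 92396136, and its first intron spans 271673 nt. The left levels were 2.41 FPKM in P45, 3.44 in P52, 2.10 in P61, 3.36 in P71 and 2.43 in P72. The right levels were 0.906, 1.52, 0.873, 1.81 and 1.31 FPKM. P52 and P71 were the highest rats on both sides, and the groups did not overlap. The mean was 2.75 ± 0.61 FPKM on the left and 1.28 ± 0.401 on the right (SD, n = 5). The difference of -1.07 was even among rats, from -1.32 in P45 to -0.84 in P72.

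The 2 other transcripts of this locus share exonic bases with TCONS_00069225 but none of its junctions. TCONS_00073759, the most abundant of the locus, had 4.76 ± 1.32 FPKM on the left and 3.05 ± 1.03 on the right, lower in 5 of 5 rats (-0.66, limma, adjusted p = 0.10). TCONS_00070610 had 0.842 ± 0.351 and 0.650 ± 0.436 FPKM, lower in 4 of 5 rats (-0.45, limma, adjusted p = 0.576). Their sum was 5.60 ± 1.54 FPKM on the left and 3.70 ± 1.39 on the right. Its difference was -0.64 (SE 0.23), negative in 5 of 5 rats though only -0.016 in P52, and did not pass (limma, unadjusted p = 0.029, adjusted p = 0.141). The share of TCONS_00069225 in the locus total was 33.2% ± 4.40 on the left and 26.3% ± 2.97 on the right, lower in 4 of 5 rats.

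TCONS_00090385 stood alone: no other assembled lncRNA overlapped it on its strand, so its estimate was not divided with another of the 1924. It is a transcript of 5273 nt in 3 exons on the minus strand of chromosome 6, from 115867957 to 115873854, and its last exon makes up 4972 nt of it. The left levels were 3.13 FPKM in P45, 1.94 in P52, 0.642 in P61, 3.37 in P71 and 2.26 in P72. The right levels were 1.01, 1.01, 0.204, 1.83 and 1.04 FPKM. P61 was lowest and P71 highest on both sides, and the left level of P61 lay below 4 of the right levels, so the groups overlapped although each rat was lower on the right. The mean was 2.27 ± 1.09 FPKM on the left and 1.02 ± 0.575 on the right (SD, n = 5), with differences from -1.54 in P45 to -0.85 in P71.

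TCONS_00063685 was the longest of the 5, with 7214 nt in 4 exons on the plus strand of chromosome 20, from 33524181 to 33531803. It had 1.38 FPKM in P45, 0.991 in P52, 1.30 in P61, 1.41 in P71 and 1.26 in P72 on the left. On the right it had 0.75, 0.537, 0.698, 0.937 and 0.621 FPKM. P52 was lowest and P71 highest on both sides, and the groups did not overlap. The mean was 1.27 ± 0.166 FPKM on the left and 0.709 ± 0.151 on the right (SD, n = 5). Its difference was the least of the 5 lncRNAs and the evenest, from -0.91 in P72 to -0.54 in P71.

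Most of the summed level of the assembled lncRNAs at this locus was TCONS_00063685 itself. It held 78.1% ± 10.3 of the total on the left and 70.1% ± 25.6 on the right, lower in 3 of 5 rats. Of the 6 other transcripts, only TCONS_00066137 passed the filter on low values, with 0.175 ± 0.152 FPKM on the left and 0.105 ± 0.118 on the right (-0.41, limma, adjusted p = 0.643). The 6 summed to 0.372 ± 0.221 FPKM on the left and 0.408 ± 0.393 on the right. That sum was higher in 3 rats and lower in 2, and its difference of -0.24 (SE 0.73) was smaller than its error (limma, adjusted p = 0.872). Among the assembled lncRNAs, the third junction was held by TCONS_00063685 alone. The first was shared with TCONS_00065806, which was near 0 on both sides, below 0.001 FPKM in 4 left and all 5 right libraries.

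**Figure D4:**
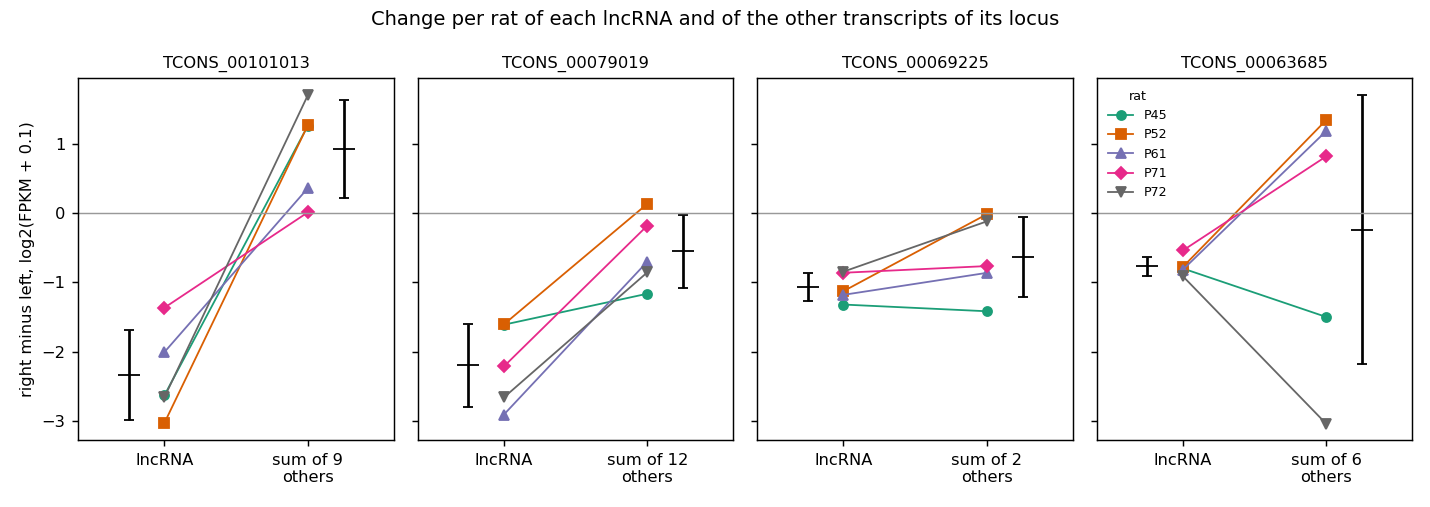
Right minus left difference on the log2(FPKM + 0.1) scale for each rat (coloured points joined by lines), for the lncRNA and for the sum of the other transcripts of its locus, with mean ± SD (n = 5). The sums lie above 0 in all 5 rats at the locus of TCONS_00101013, below 0 in 4 and 5 rats at those of TCONS_00079019 and TCONS_00069225, and on both sides of 0 at that of TCONS_00063685. The sums of P71 at TCONS_00101013 and of P52 at TCONS_00069225 lie close to 0.

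Over the 4 loci with several transcripts there were 29 others, of which 23 passed the filter. The limma fit called 0 of the 23 lower and 0 higher after adjustment, 8 had an unadjusted p under 0.05, and 12 had a difference above 0 and 11 below. An unadjusted p under 0.05 was found in 205 of the 1696 assembled lncRNAs and 5567 of all 20936 transcripts in that fit. Reads of shared exons tie these values to those of the members. At 5 rats a difference that misses the threshold does not show that a transcript was at the same level on both sides.

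Set among the 1924 assembled lncRNAs, the 2 transcripts near 0 on the right were of lower level and had more exons than the other 3. A higher mean level was found in 1140 lncRNAs for TCONS_00101013 and in 1406 for TCONS_00079019, but only in 298 for TCONS_00069225, 357 for TCONS_00090385 and 601 for TCONS_00063685. More exons were found in 13 lncRNAs for TCONS_00101013 and in 127 for TCONS_00079019. For TCONS_00069225 and TCONS_00090385 the count was 577 each, and for TCONS_00063685 it was 341. Longer transcripts numbered 103 for TCONS_00063685 and 187 for TCONS_00090385. Of the 1696 assembled lncRNAs tested, 11 had a more negative difference than TCONS_00101013 and 17 than TCONS_00079019, whereas 157, 179 and 308 had a more negative one than TCONS_00090385, TCONS_00069225 and TCONS_00063685. A lower level in all 5 rats was shared by 107 of them (6.31%).

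Right levels below 0.001 FPKM in at least 3 libraries with no such left library were found in 37 of the 1696 assembled lncRNAs, TCONS_00101013 and TCONS_00079019 among them, and the mirror pattern in 6. In the 19240 Ensembl transcripts tested, the counts were 35 and 67. The median difference of the assembled lncRNAs was -0.16 and that of the Ensembl transcripts -0.0035. The median SD of the difference among rats was 1.07 in the former and 0.40 in the latter.

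The assembled lncRNAs outside the locus whose levels followed each of the 5 most closely were taken by Pearson's r of log2(FPKM + 0.1) over the 10 libraries, which come from 5 rats and differ by side. For TCONS_00090385 they were TCONS_00066934 (r = 0.912), TCONS_00074275 (0.902) and TCONS_00110137 (0.879). TCONS_00074275 was far more abundant, with 176 ± 20.6 FPKM on the left and 132 ± 21.2 on the right. Within sides, after each side's mean was subtracted, r was 0.874, 0.882 and 0.821. The r used for the choice already includes these deviations, so r within sides is no separate check, here or below. For TCONS_00063685 the closest were TCONS_00056768 (r = 0.904), TCONS_00081212 (0.870) and TCONS_00006887 (0.870), with r within sides of 0.821, 0.763 and 0.625. For TCONS_00069225 they were TCONS_00025492 (0.896), TCONS_00056797 (0.884) and TCONS_00084570 (0.856), with r within sides of 0.794, 0.721 and 0.692.

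For the 2 lncRNAs near 0 on the right, the highest r was below that of the other 3. TCONS_00075139 (r = 0.841), TCONS_00039304 (0.756) and TCONS_00054887 (0.735) came closest to TCONS_00101013, and their r within sides was 0.547, 0.362 and 0.490. TCONS_00077275 (r = 0.838), TCONS_00071780 (0.832) and TCONS_00085050 (0.821) came closest to TCONS_00079019, and their r within sides was 0.697, -0.074 and 0.745. TCONS_00071780, the one with no positive r within sides, had 23.5 ± 3.41 FPKM on the left and 14.2 ± 1.48 on the right. Ranking by r within sides gave none of the same 3 companions for any of the 5 lncRNAs.

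The 5 lncRNAs themselves did not follow one course across rats. Over the 10 libraries their 10 pairwise r ranged from 0.053 to 0.821, and all 10 carry the lower right side by which the lncRNAs were chosen. Within sides, r was between -0.862 and 0.670 and negative in 6 of 10 pairs. TCONS_00069225 and TCONS_00090385 had the highest value within sides, 0.670, and TCONS_00101013 and TCONS_00090385 the lowest, with P61 highest in the first and lowest in the second on both sides.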

How the data were processed

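RNA sequencing libraries of the left and right hemisphere of 5 rats were compared. Per the labels and the study's methods, the authors mapped reads to rn5 with TopHat2, assembled and quantified transcripts with Cufflinks, kept spliced unannotated transcripts without coding potential or overlap with known exons, and deposited FPKM per transcript and library. The positions and exons of the assembled lncRNAs are other values the authors deposited, on rn5. All sample columns were matched to a label by title, and 0 were left over.

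The 5 lncRNAs, the gene lists and the tests were chosen with earlier results of these data known. The main fit was limma 3.58.1 in R 4.3.3 (lmFit, eBayes with trend) on log2(FPKM + 0.1) with the rat as a block, keeping transcripts whose mean FPKM reached 0.1, two-sided, Benjamini-Hochberg adjusted over all transcripts fitted, at 0.05. Both sides come from 1 animal, which gives the pairing. Deviations of both sides of a rat from the side means correlated at -0.128 to 0.177, and those of different rats at -0.0082 on average. For sums, the other transcripts of a locus were replaced by their summed FPKM and the table refitted. Shares, junction sums and correlations were computed in Python 3.11.15 with pandas 2.3.3, numpy 2.4.6 and scipy 1.17.1, and figures with matplotlib 3.10.9. The fit and the depth estimate were tested on simulated data.

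Named transcripts are the 5, all assembled lncRNAs overlapping them on the same strand, and for each the 3 others with a mean FPKM of at least 0.5 and the highest r. The neighbours in the closing section were chosen after their values were seen. Alternatives were other pseudocounts, filters and scaling, no block, no moderation, leaving out each rat, and for sums a weighting by length. Depth in reads is unknown, so no interval from counts is given. Cell type markers, Ensembl transcripts by gene name and sequences were not analysed here, since no rn5 genome and no table pairing the identifiers with symbols was used.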

Additional observations from a re-analysis of the deposited data

Results flagged for a closer look

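Among 18 groups of 5 libraries (each lncRNA and each sum of the others at a locus, by side), 3 held a library whose gap to the nearest other, divided by the range of the group, exceeded Dixon's 95% critical value of 0.71. About 1 in 20 groups, or 0.9 of 18, would do so by chance if the values were normally distributed. That rate need not hold for FPKM that are mostly near 0, or for lncRNAs chosen by their level. The right level of TCONS_00101013 in P61, 0.276 FPKM, stood above the other 4 with a ratio of 0.813. The right level of TCONS_00079019 in P52, 0.113 FPKM, stood above 4 values near 0 with a ratio of 1. The right sum of the other transcripts at the locus of TCONS_00101013 in P72, 11.7 FPKM, stood above the others with a ratio of 0.735.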

How the results depend on the processing

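All 5 lncRNAs kept a mean difference below 0 under every alternative in which they were fitted. A filter at a mean FPKM of 1 fitted only TCONS_00069225 and TCONS_00090385. The lncRNAs were chosen as lower on the right and were so in every rat, so only the scaling of libraries could have turned a sign. The size of the differences followed the pseudocount. With 0.01 it was -4.41 for TCONS_00101013 and -4.72 for TCONS_00079019. With 1 it was -0.66, -0.51, -0.72, -0.67 and -0.41 for TCONS_00101013, TCONS_00079019, TCONS_00069225, TCONS_00090385 and TCONS_00063685, and with TPM scaling it was -2.88 for TCONS_00079019. Transcripts called lower (459) numbered 303 without the filter, 297 with TPM scaling, 741 without the replicate block, 113 without moderation, and 12 (without P45) to 615 (without P72) when 1 rat was left out. Those called higher (1155) numbered 408 without moderation and 250 (without P45) to 1137 (without P72) with 1 rat left out. Assembled lncRNAs called lower (11) numbered 7 without the filter, 5 at a mean FPKM of at least 1, 18 without the block, 4 without moderation and 0 (without P52) to 17 (without P72). Those called higher (14) numbered 9, 24 and 5 without the filter, block and moderation, and 2 (without P45) to 12 (without P72). Of the other transcripts at the loci (0 called), 1 was called lower with a pseudocount of 1 (TCONS_00078206), and without the block 1 was called lower (TCONS_00078206) and 2 higher (TCONS_00096994, TCONS_00098530). The summed others at TCONS_00101013 stayed at 0.92 without the block, with an adjusted p of 0.0351, against a range of 0.0351 to 0.253 over all alternatives. Those at TCONS_00063685 went to 0.0065 with a pseudocount of 1 and to between -0.63 and 0.46 with 1 rat left out. Signs also turned for TCONS_00076794 (-0.0057, pseudocount 1), TCONS_00080113 (0.064, pseudocount 0.01) and TCONS_00079751 (-0.018, pseudocount 0.01). With 1 rat left out they turned for TCONS_00097582 (-1.14 to 0.45), TCONS_00076794 (-0.44 to 0.85), TCONS_00076793 (-0.65 to 0.18), TCONS_00081088 (-1.22 to 0.17) and TCONS_00079751 (-0.039 to 0.17). The cause of these differences was not tested, and the unknown depth in reads limits all levels near 0.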

Other observations

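Within 500000 nt outside the loci, 10 other assembled lncRNAs were found, and those beside TCONS_00069225 were the ones without overlap between sides. They were picked out after their values were seen, so nothing is read from their p-values. Every right library lay below every left one in 17 of the 1696 assembled lncRNAs tested and in 757 (3.62%) of all 20936 transcripts. TCONS_00069979, on the plus strand of chromosome 3 from 92844219 to 93029970, averaged 0.206 ± 0.102 FPKM on the left and was below 0.001 FPKM in all 5 right libraries. It was lower in 5 of 5 rats, with a difference of -1.52 that did not pass after adjustment (limma, unadjusted p = 0.0082, adjusted p = 0.073). TCONS_00073285, from 92675886 to 93029970, overlaps it on the same strand and shares its end, so reads may be divided between the pair. It had 0.611 ± 0.188 FPKM on the left and 0.266 ± 0.084 on the right, lower in 5 of 5 rats (-0.95, limma, unadjusted p = 0.014, adjusted p = 0.095). The 6 beside TCONS_00101013 began 150393 to 152204 nt from its end on the same strand and had adjusted p of at least 0.238. The single neighbours of TCONS_00090385 and TCONS_00063685 had differences of 0.057 and 0.21, with adjusted p of 0.903 and 0.871.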
